A study of Mus musculus with 10 samples.

Results

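The immediate early and AP-1 genes examined here were Fos, Fosb, Fosl1, Fosl2, Jun, Junb, Jund, Egr1, Ier2 and Atf3. They were taken as the rows of the deposited expression table whose gene name equals one of these 10 symbols, and each of the 10 symbols was found once among the 55401 genes listed. The libraries are poly(A) RNA-seq of E14, a mouse embryonic stem cell line. Wild-type cells gave 4 libraries (sets 1 and 2, each with replicates 1 and 2), and the ANKRD11 Y347A mutant, made by CRISPR/Cas9 editing, gave 6 libraries (sets 1, 2 and 3, each with replicates 1 and 2). The wild type is labelled as untreated, and no agent or time point is given for either genotype. Neither clones nor cultures are named, so the p-values between genotypes cover only the spread among sets, which may be technical. Those between sets of a genotype cover only the spread between the libraries of a set, which may be technical too. ANKRD11 is a nuclear regulator of transcription that contacts cohesin, and the question here is how early response and AP-1 transcripts stood in its mutant.

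AP-1 is a dimer of basic leucine zipper proteins. FOS proteins cannot pair with themselves and bind DNA with a JUN protein, whereas JUN proteins can also pair with each other and with ATF proteins. Fos, Jun, Egr1 and Ier2 are classical immediate early genes: growth factors acting through ERK, serum response factor and CREB induce them within minutes without new protein synthesis, and their mRNAs are short-lived. Atf3 is a related zipper protein best known as a stress-induced repressor.

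In the mutant, Fos, Jun and Atf3 were higher and Ier2 was lower, while Junb and Jund did not pass the test and Fosb, Fosl1, Fosl2 and Egr1 were too low to be tested. Levels are TPM (read counts divided by transcript length and scaled to a fixed total per library). They can be compared between genes, but the depth behind them is unknown. Fold changes are differences of log2(TPM + 1), mutant minus wild type ± SE, from a limma fit on set means (2 wild-type against 3 mutant sets). This scale understates changes of genes near 1 TPM. Adjusted p are Benjamini-Hochberg values over the 12797 genes that averaged 1 TPM or more, and called means an adjusted p under 0.05. In bulk RNA, fewer cells expressing a gene and less RNA per cell cannot be told apart.

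The sequences upstream of the 3 raised members are shown because these genes were higher together. They are the 250 bases before the RefSeq start site (GRCm38.p6), read 5′ to 3′ on the gene's strand: Fos at chr12:85473640-85473889 on the plus strand, Jun at chr4:95052223-95052472 and Atf3 at chr1:191183334-191183583, both on the minus strand. The Atf3 start lies inside the annotated gene span. Capitals mark matches to a TATA box, a CCAAT box or a cyclic AMP response element (CRE).
Fos: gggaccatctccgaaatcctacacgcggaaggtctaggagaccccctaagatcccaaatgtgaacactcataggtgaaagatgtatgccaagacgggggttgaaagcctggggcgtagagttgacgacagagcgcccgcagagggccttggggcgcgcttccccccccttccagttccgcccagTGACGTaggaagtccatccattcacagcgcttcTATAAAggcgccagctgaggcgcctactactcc
Jun: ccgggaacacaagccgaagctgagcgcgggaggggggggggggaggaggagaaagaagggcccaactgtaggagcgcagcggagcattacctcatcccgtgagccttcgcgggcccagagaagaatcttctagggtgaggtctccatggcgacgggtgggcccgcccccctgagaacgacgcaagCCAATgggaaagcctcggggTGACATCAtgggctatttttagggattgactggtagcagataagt
Atf3: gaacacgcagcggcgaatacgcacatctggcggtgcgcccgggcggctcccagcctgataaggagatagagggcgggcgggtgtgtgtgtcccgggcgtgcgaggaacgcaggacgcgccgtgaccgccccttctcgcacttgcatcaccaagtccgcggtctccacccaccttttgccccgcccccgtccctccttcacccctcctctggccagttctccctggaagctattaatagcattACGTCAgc

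Windows of this kind were held for 7 of the 10 genes, and 7 motifs were searched on both strands. Fos holds a TATA box (TATAAA) at positions -33 to -28 before the start, as do 12.4% of all 32851 promoter windows. It also holds the CRE core TGACGT at -66 to -61. Atf3 holds the same core on the opposite strand at -8 to -3, and 6.47% of all windows hold one. Jun holds the CRE-like site TGANNTCA at -45 to -38, and 11.9% of all windows hold one. The Jund window also matches, but its RefSeq start lies 1210 bases before the Jund gene start in GENCODE M21. A CCAAT box stands at -65 to -61 in Jun and at -36 to -32 in Junb, and in 33.8% of all windows. The EGR site GCGNGGGCG was matched in Fosb and Fosl2, and in 4.7% of all windows. Counted as bases upstream of the GENCODE gene start, the RefSeq start lies at -671 for Fosl2 and -34706 for Atf3, both inside the gene. Neither the AP-1 pattern TGANTCA (6.75% of all windows) nor the CArG box of serum response factor (1.47%) matched in any of the 7 windows. That AP-1 pattern is shorter than TGANNTCA, so it cannot match the site marked in Jun. The windows end 250 bases before the start, and Egr1, Fosl1 and Ier2 had none, so sites farther away were not searched. The motifs were chosen with these sequences in view, and the core can overlap a full CRE. A match describes letters, not binding.

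The gene models differ by family. Jun, Junb, Jund and Ier2 each have a coding transcript of 1 exon, while the 4 FOS genes and Atf3 have 4 exons and Egr1 has 2 (GENCODE M21, mm10 coordinates). Immediate early mRNAs are known for AU-rich elements in the 3′ UTR, whose core is ATTTA. The 3′ UTR of the longest coding transcript holds this core 4 times in Fos and in Jun, 3 times in Atf3 and 0 times in Ier2. It is held 8 times in Fosl2, 2 times in Junb and in Egr1, and 1 time each in Fosb, Fosl1 and Jund. Over all genes, 35.5% of 20869 hold it at least 3 times. A stretch of the Fos 3′ UTR, bases 632 to 661, is shown with its overlapping cores in capitals.
Fos AU-rich site: aacgtttttattgtgttttcaATTTATTTA

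Fos (ENSMUSG00000021250.13, chromosome 12, 85473890 to 85477273, plus strand) encodes the founding partner of JUN. Wild-type set 1 had 1.08 and 0.87 TPM and set 2 had 1.37 and 1.31 TPM. Mutant set 1 had 3.65 and 3.26 TPM, mutant set 2 had 3.26 and 2.66 TPM, and mutant set 3 had 2.90 and 2.99 TPM. Every mutant library lay above every wild-type library, and the closest pair was 2.66 TPM in the mutant and 1.37 TPM in wild type. Mean TPM over sets rose from 1.16 ± 0.258 (SD, n = 2 sets) to 3.12 ± 0.290 (n = 3 sets), a ratio of 2.70, with a log2 fold change of 0.94 ± 0.16 (limma adjusted p = 0.0146). By this fold change Fos ranked 158 of the 12797 tested genes.

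Jun (ENSMUSG00000052684.4, chromosome 4, 95049034 to 95052222, minus strand) encodes a protein that pairs with itself and with FOS and ATF proteins. Wild-type set 1 had 1.41 and 1.72 TPM and set 2 had 1.02 and 1.08 TPM, against 3.02 and 2.96, 2.77 and 2.55, and 3.09 and 2.59 in mutant sets 1, 2 and 3. The genotypes did not overlap. The set mean rose from 1.31 ± 0.364 to 2.83 ± 0.165 TPM, a ratio of 2.16, with a log2 fold change of 0.74 ± 0.16 (limma adjusted p = 0.0272). The antisense gene Junos shares 232 of the 3189 exonic bases of Jun, with the strand mode of counting not given in the sources used here. Junos was listed at 0 to 0.33 TPM in wild-type and 0 to 0.46 TPM in mutant libraries, well under Jun in each.

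Atf3 (ENSMUSG00000026628.13, chromosome 1, 191170296 to 191218039, minus strand) had a ratio of 2.73 between mutant and wild-type means. Wild-type set 1 had 0.91 and 0.74 TPM, set 2 had 0.39 and 0.43 TPM, and the mutant had 0.94 and 2.05, 1.26 and 1.83, and 1.90 and 2.15 TPM for sets 1, 2 and 3. The genotypes did not overlap, but the lowest mutant library lay just above the highest wild-type library. The set mean rose from 0.617 ± 0.293 to 1.69 ± 0.293 TPM, with a log2 fold change of 0.72 ± 0.20 (limma adjusted p = 0.0495). Atf3 passed the filter on mean TPM through its mutant libraries, and its call stood at the threshold: it was lost in 16 of 26 alternatives. Over all 26 its adjusted p ran from 0.0054, in a fit that took the 10 libraries as independent, to 0.229. Several changes removed the call. Leaving out any 1 of the 5 sets was enough (0.0653 to 0.229), as was leaving out wild-type library 1-2, 2-1 or 2-2 or mutant library 1-2, 2-2, 3-1 or 3-2 (0.0523 to 0.129), named by set and replicate. With a pseudocount of 0.1 the fold change was 1.33 and the adjusted p 0.0528.

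Ier2 (ENSMUSG00000053560.5, in the annotation at chromosome 8, 84661331 to 84662852, minus strand), a nuclear protein of the early serum response, was 1 of the 2 most abundant members. Its TPM was 40.3, 39.3, 38.8 and 44.1 in the wild-type libraries. In mutant sets 1, 2 and 3 it was 32.3 and 32.6, 33.7 and 34.9, and 31.9 and 29.9. The genotypes did not overlap, with all 6 mutant libraries lower. The set mean fell from 40.6 ± 1.18 to 32.5 ± 1.69 TPM, a ratio of 0.801, with a log2 fold change of -0.31 ± 0.08 (limma adjusted p = 0.0436). The direction was the same under both rescalings of the libraries, but the call was lost there (adjusted p = 0.0806 by median-of-ratios and 0.0892 by quantile normalization), and in 14 of 27 alternatives in all. These include each set left out apart from mutant set 2 (0.102 to 0.234), and wild-type library 1-1 or 2-2 or mutant library 1-1, 2-1 or 3-1 (0.0526 to 0.0736).

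**Figure D1:**
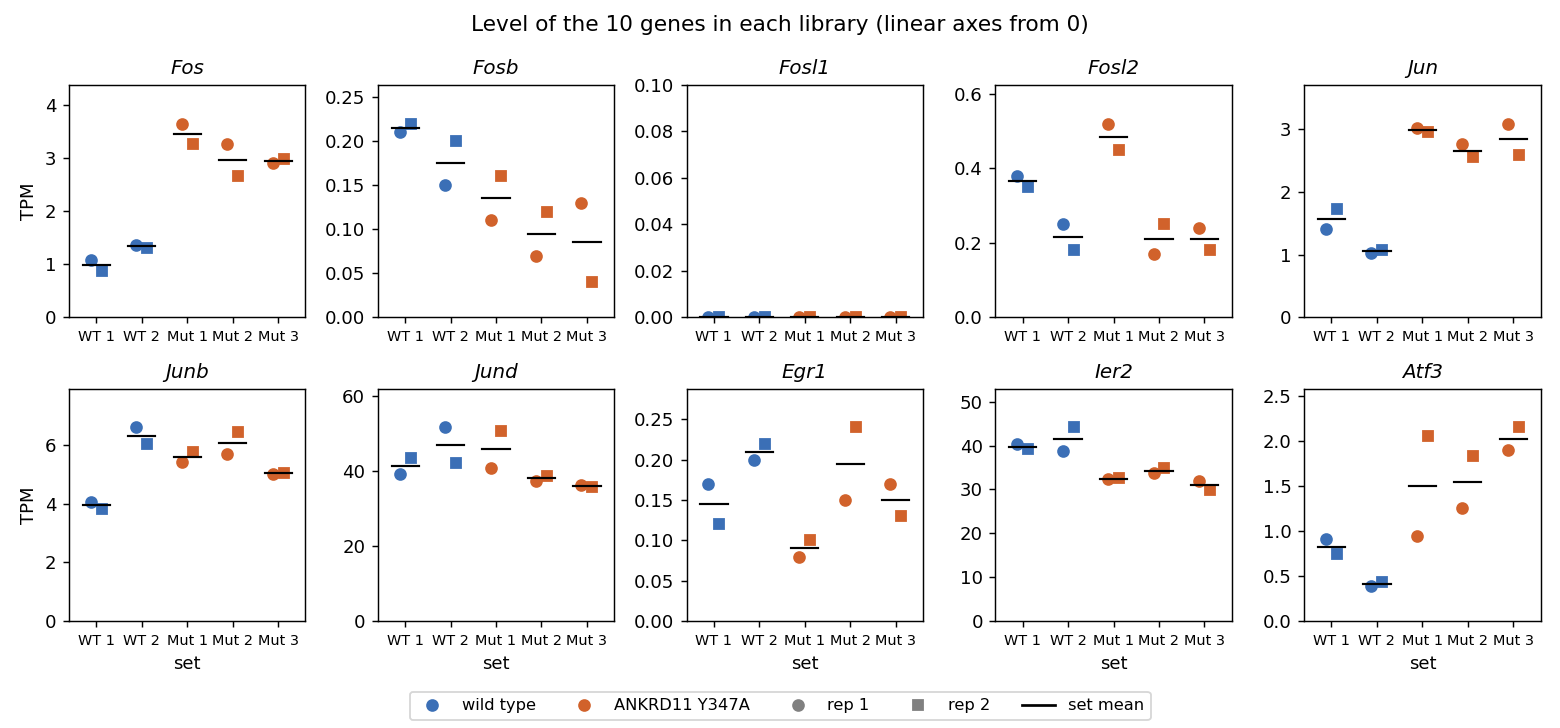
TPM of each of the 10 genes (vertical axes, linear from 0) in the 2 wild-type and 3 mutant sets, with circles for replicate 1, squares for replicate 2 and a line for the set mean. Fos, Jun and Atf3 are higher and Ier2 is lower in all 6 mutant libraries than in all 4 wild-type libraries, while the other members overlap or, for Fosl1, are listed at 0.

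Of the 6 members tested, 3 were called as raised, where 6.97% of all tested genes were, and 1 as lowered, where 10.5% were. All 6 mutant libraries lay above all wild-type libraries for 3 of the 6, against 12.4% of tested genes, and below them for 1, against 19.4%. Atf3 passed the filter only through the mutant libraries, where it is high, and without it 2 of 5 members were raised and lay above wild type in all mutant libraries. Since 4 of the 10 members were not tested, these counts describe the tested members only. Fos and Jun lost their calls when single sets were left out. The adjusted p of Fos was 0.0921 and 0.0894 when wild-type set 1 or 2 was dropped and 0.0546 when mutant set 1 was, with fold changes of 0.81, 1.06 and 0.88. For Jun it was 0.0793, 0.160 and 0.0855 in the same cases and 0.0709 when mutant set 3 was dropped.

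**Figure D2:**
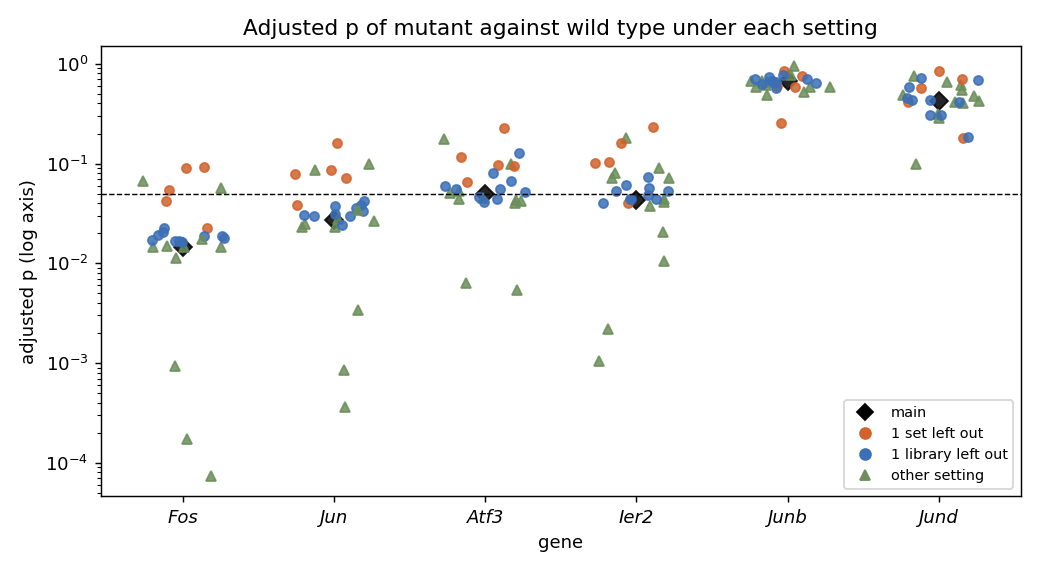
Limma adjusted p (log axis) of the 6 tested members under each setting, with the reported value as a black diamond, sets left out in orange, single libraries left out in blue and other settings in green. Fos and Jun lie under 0.05 in most settings but not with most sets left out, Atf3 and Ier2 lie on both sides of 0.05, and Junb and Jund lie above it.

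**Figure D3:**
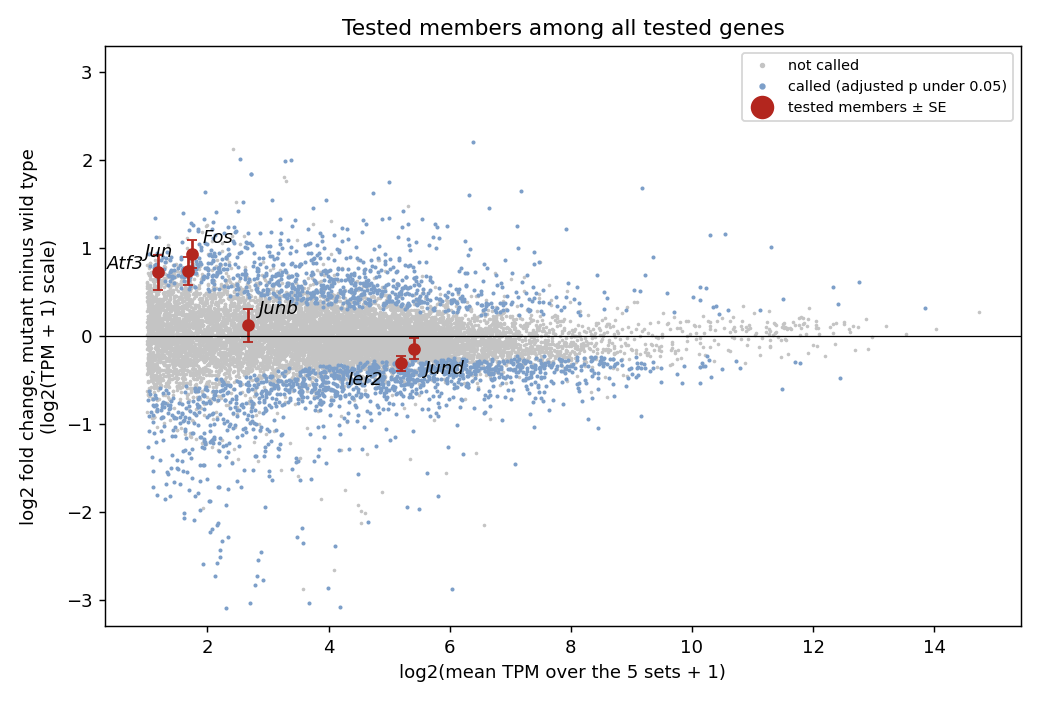
Log2 fold change, mutant minus wild type on the log2(TPM + 1) scale (vertical axis), against log2 of the mean TPM over sets plus 1 (horizontal axis) for all 12797 tested genes, with the 6 tested members in red ± SE. Fos, Jun and Atf3 lie at 0.94, 0.74 and 0.72 among genes of low level, and Junb, Jund and Ier2 lie between 0.12 and -0.31.

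Junb (ENSMUSG00000052837.7), a JUN protein that often opposes Jun, did not pass the test between genotypes but separated the wild-type sets. Wild-type set 1 had 4.07 and 3.83 TPM, set 2 had 6.61 and 6.05 TPM, and the 6 mutant libraries had 5.03 to 6.45 TPM. All mutant libraries lay inside the wild-type range. The log2 fold change between genotypes was 0.12 ± 0.19 (limma adjusted p = 0.667), -0.16 when wild-type set 1 was dropped and 0.41 when wild-type set 2 was. Prdx2, on the opposite strand, shares 173 of the 2301 exonic bases of Junb. It was at 200 to 215 TPM in wild-type and 153 to 184 TPM in mutant libraries, and its part in the Junb value was not tested.

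Jund (ENSMUSG00000071076.6), the constitutively expressed JUN gene, had the highest level of the 10 in both genotypes. Its TPM was 39.2, 43.5, 51.6 and 42.0 in the wild-type libraries and 40.7 and 50.7, 37.4 and 38.7, and 36.2 and 35.8 in mutant sets 1, 2 and 3. The genotypes overlapped through mutant set 1, and all libraries of mutant sets 2 and 3 lay below wild type. The set mean was 44.1 ± 3.85 TPM in wild type and 39.9 ± 5.12 TPM in the mutant, with a log2 fold change of -0.14 ± 0.12 (limma adjusted p = 0.422). It was -0.19 (adjusted p = 0.183) without replicate 2 of mutant set 1, and -0.25 (adjusted p = 0.0981) after a correction for GC content. The antisense gene Gm11175 shares 877 of the 1668 exonic bases of Jund and was listed at 0 to 3.08 TPM.

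The JUN family had a similar sum but another makeup. Summed TPM of Jun, Junb and Jund was 50.5 ± 5.17 in wild-type and 48.3 ± 5.38 in mutant sets. Jun made up 2.65% ± 0.969 of that sum in wild type and 5.91% ± 0.490 in the mutant, and Jund 87.3% ± 1.35 and 82.5% ± 1.42. The Jun share was 1.72% to 3.51% in wild-type and 4.98% to 6.97% in mutant libraries, with no overlap. Junb made up 10.1% ± 2.32 and 11.6% ± 1.31, which overlapped. These shares follow from the levels above and carry no test of their own.

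The FOS family was low throughout, and Fos made up most of it. Fosb, a FOS protein with a stable truncated form in neurons, was at 0.21, 0.22, 0.15 and 0.20 TPM in the wild-type libraries and at 0.04 to 0.16 TPM in the mutant. In 5 of 6 mutant libraries it lay below all wild-type libraries, with set means of 0.195 ± 0.0283 and 0.105 ± 0.0265 TPM. With no filter on mean TPM its log2 fold change was -0.11 ± 0.04 (limma adjusted p = 0.157 over 26268 genes). Fosl2 (FRA2) was at 0.18 to 0.38 TPM in wild-type and 0.17 to 0.52 TPM in mutant libraries, and Fosl1 (FRA1) was listed at 0 in all 10. Ccdc85b, on the opposite strand, shares 1163 of the 2033 exonic bases of Fosl1 and was at 1.63 to 2.54 TPM. Summed TPM of the family was 1.64 ± 0.124 in wild type and 3.53 ± 0.475 in the mutant, of which Fos made up 70.0% ± 10.5 and 88.7% ± 3.43.

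**Figure D4:**
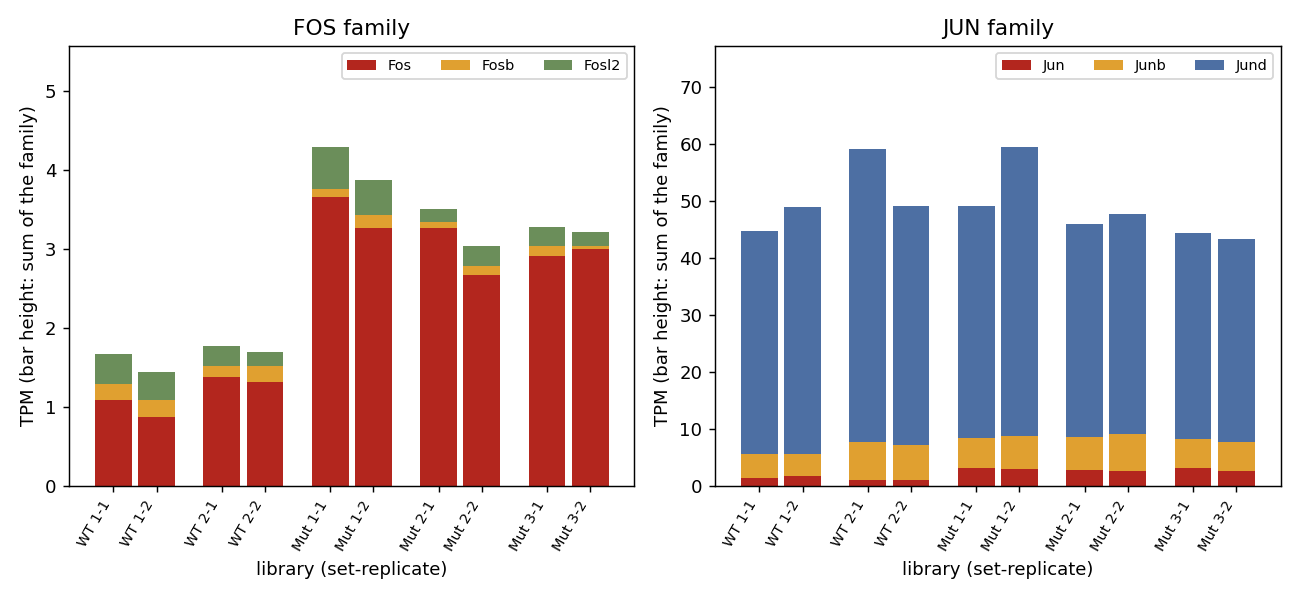
TPM of the FOS family (left) and JUN family (right) in each library, labelled by set and replicate, with bar height as the family's sum and colours as its members. Fos fills most of the FOS bars and is taller in the mutant, while Jund fills over 80% of each JUN bar and Jun is a thin layer that is larger in the mutant.

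Egr1, a zinc finger factor that is among the strongest targets of ERK and serum response factor, stayed near the floor of the table. It was at 0.17, 0.12, 0.20 and 0.22 TPM in the wild-type libraries and at 0.08 to 0.24 TPM in the mutant. The ranges overlapped, and with no filter the log2 fold change was -0.04 ± 0.05 (limma adjusted p = 0.696). The order of levels was Jund, Ier2 and Junb first in both genotypes. In wild type the ranges of Jund and Ier2 overlapped, as did those of Jun and Fos and of Fos and Atf3, whereas in the mutant those of Jund and Ier2 did not and Fos and Jun still overlapped. Below Atf3, Fosl2 overlapped its neighbour in both genotypes, as did Fosb and Egr1 with each other.

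Sets of 1 genotype were also compared. In an F test across mutant sets 1, 2 and 3, on the spread between the 2 libraries of a set, 0 of 6 tested members were called (limma), where 19.6% of all genes were, and 0 had an unadjusted p under 0.05. The smallest p among them was that of Jund, 0.0609. Fosl2, tested with no filter on mean TPM, was at 0.52 and 0.45 TPM in mutant set 1 and at 0.17 to 0.25 TPM in sets 2 and 3, and was called there (limma adjusted p = 0.0476). Between the wild-type sets 1 of 6 members was called, where 2.75% of all genes were, and 2 had an unadjusted p under 0.05. Junb was higher in set 2 by 0.57 ± 0.09 (limma adjusted p = 0.0253). The Junb call was lost without any one of the 4 wild-type libraries, without either library of mutant set 3, and with no filter (adjusted p = 0.0540). Jun averaged 1.56 TPM in wild-type set 1 and 1.05 TPM in set 2, a log2 difference of -0.32 ± 0.13 (limma adjusted p = 0.215). Atf3 averaged 0.825 and 0.410 TPM there, a difference of -0.37 ± 0.23 (limma adjusted p = 0.406).

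Other immediate early genes went both ways. Of 50 listed, 41 were tested, 7 rose and 6 fell, where 6.97% of all tested genes rose and 10.5% fell. The median log2 fold change was 0.17 against -0.04 over all tested genes. Those that rose most were Bhlhe40, a helix-loop-helix repressor (1.13 ± 0.16), Maff, a small MAF partner of zipper proteins (1.09 ± 0.15), Socs3, the feedback inhibitor of STAT3 (1.08 ± 0.07), and Btg2, an antiproliferative factor (0.89 ± 0.12), with limma adjusted p from 0.0019 to 0.0088. Btg1, Mcl1 and Errfi1 rose too, by 0.67, 0.52 and 0.36. Ccn1 and Ccn2, secreted matricellular proteins induced by serum and by YAP, fell from 9.53 ± 0.279 to 4.85 ± 0.121 TPM and from 6.30 ± 0.0283 to 3.02 ± 0.289 TPM. Sgk1, Homer1, Sik1 and Pim1 also fell, by 0.51, 0.35, 0.35 and 0.32 on the log2 scale. Dusp1, a MAP kinase phosphatase, Nr4a1, an orphan nuclear receptor, and Myc did not pass, with log2 fold changes of 0.17 ± 0.10, -0.04 ± 0.10 and -0.53 ± 0.20. The 9 genes under the filter include Egr2, Egr3, Egr4, Nr4a2 and Npas4, which like Egr1 are acute ERK or calcium targets. Named after their values were seen were the 6 lowered genes, Btg1, Mcl1 and Errfi1 and the genes that did not pass.

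Dimer partners and other zipper proteins also split. Of 28 listed, 21 were tested, 4 rose and 3 fell, where 6.97% of all tested genes rose and 10.5% fell. The median was 0.04. Ddit3 (CHOP), a stress-induced partner of C/EBP and ATF proteins, rose from 31.5 ± 1.23 to 71.3 ± 19.3 TPM (1.12 ± 0.20, limma adjusted p = 0.0169). Its symbol stands on more than 1 row of the table, and the row with the highest mean was used. Creb3, a membrane-tethered factor, rose (0.56 ± 0.13). Mafa, a large MAF protein, fell from 3.89 ± 0.795 to 1.47 ± 0.333 TPM (-0.99 ± 0.19). Jdp2, a repressor that dimerises with JUN, fell from 12.4 ± 0.0389 to 8.58 ± 0.842 TPM (-0.49 ± 0.11, limma adjusted p = 0.0306). Of the called genes named by rule from these lists and those that follow, each lost its call in at least 1 alternative, except Socs3, called in all 27 alternatives.

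**Figure D5:**
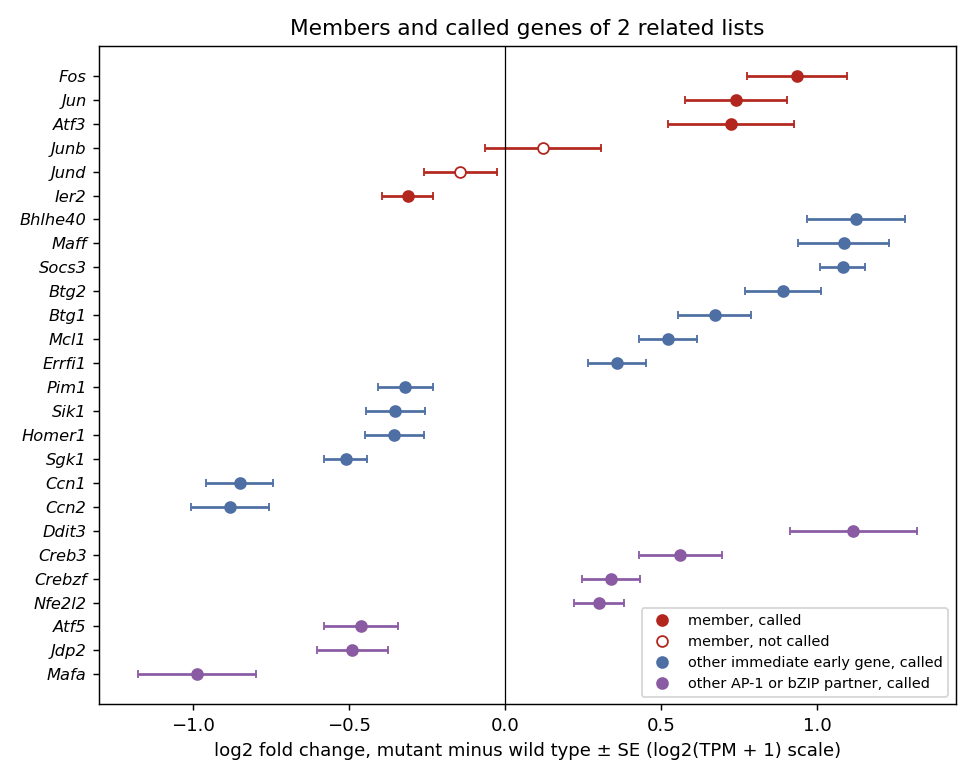
Log2 fold change, mutant minus wild type ± SE on the log2(TPM + 1) scale (horizontal axis), for the 6 tested members (red, open where not called) and for the called genes among other immediate early genes (blue) and other AP-1 or zipper partners (purple). Both lists hold genes on either side of 0, from 1.13 for Bhlhe40 to -0.99 for Mafa.

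Genes upstream of the members gave no call in the fit on set means. Of 40 listed genes for serum response factor, its cofactors and the MAP kinase and CREB inputs, 38 were tested and 0 were called (limma), and the median was -0.06. Over all tested genes, 6.97% were called as raised and 10.5% as lowered. An unadjusted p under 0.05 was found for 13 of the 38 (34.2%), a share close to the 34.9% of all tested genes. The smallest p was that of Map2k6, a kinase of p38, at 20.7 ± 0.944 and 16.4 ± 0.991 TPM (-0.32 ± 0.09, limma adjusted p = 0.0607). Of 11 feedback targets of ERK, 10 were tested and the median was -0.02. Etv4, an ETS factor, was the 1 that fell, by 0.96 on the log2 scale, a share close to the 10.5% of all tested genes. Of 12 genes for JUN turnover and AP-1 repression, all tested, Csnk2a1, the catalytic subunit of casein kinase 2, was the 1 that fell (-0.32 ± 0.07). This share too was close to 10.5%, and the median was -0.02.

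Among 40 genes known as AP-1 targets in other cells, 27 were tested, 8 rose and 2 fell, with a median of 0.12. Of all tested genes, 6.97% rose and 10.5% fell. The metallothioneins Mt1 (1.15 ± 0.14) and Mt2 (1.01 ± 0.13), zinc-binding proteins with several other inducers, rose, while Gja1 (connexin 43, -0.83 ± 0.21) and the growth factor Hbegf (-0.75 ± 0.12) fell, with limma adjusted p from 0.0066 to 0.0372. Of 16 genes of heat shock and dissociation stress, which handling can raise together with Fos and Jun, 15 were tested and Hspa1a was too low. Of the 15, 0 rose and 4 fell (limma), where 6.97% of all tested genes rose and 10.5% fell, with a median of -0.11. All mutant libraries lay above all wild-type libraries for 2 genes of this list and below them for 6, against 12.4% and 19.4% of all tested genes. These counts were 15 and 6 for the 50 other immediate early genes, 9 and 5 for the 40 AP-1 targets and 5 and 6 for the 28 zipper proteins listed. An unadjusted p under 0.05 was found for 8 of the 15 (53.3%), against 34.9% of all tested genes. That share was 53.7% for other immediate early genes, 55.6% for AP-1 targets and 42.9% for zipper proteins. It was 20% for ERK feedback targets and 16.7% for genes of JUN turnover and AP-1 repression. The part of handling in the members' differences was not tested. Dnaja1 (-0.47 ± 0.08), Hspd1 (-0.45 ± 0.08), Hspa5 (-0.33 ± 0.07) and Hsp90ab1 (-0.30 ± 0.08) fell, a call that Hspa5 and Hsp90ab1 lost after median-of-ratios rescaling. All lists, like the members, were drawn up with earlier results of these data known.

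The genes most like Fos and Jun were sought by the Pearson correlation of deviations from the genotype mean, over 10 libraries and the 8849 genes that averaged 5 TPM or more. Libraries of a set may share their source, so these values describe and carry no p. For Jun the highest were Scube3 (0.968), Mcoln1 (0.960), Cfap410 (0.943), Atp6v0d1 (0.926) and Mier1 (0.925). Of these, Scube3, a secreted signalling protein, Mcoln1, a lysosomal calcium channel, and Atp6v0d1, a subunit of the vacuolar proton pump, also rose in the mutant, by 0.86, 0.59 and 0.82. For Fos they were Dmtn (0.943), Ptk7 (0.915), Tmem160 (0.915), Csk (0.910) and Rgs12 (0.910), of which Dmtn and Tmem160 fell in the mutant. Such deviations hold the differences between sets of a genotype. In wild-type set 2 against set 1, Jun was lower (-0.32), as were Scube3 (-0.39), Mcoln1 (-0.23), Cfap410 (-0.31), Atp6v0d1 (-0.31) and Mier1 (-0.40). Fos was higher there (0.25), as were Dmtn (0.35), Ptk7 (0.22), Tmem160 (0.20), Csk (0.12) and Rgs12 (0.39). The likeness may thus in part restate the difference between the wild-type sets. Fos and Jun themselves had a correlation of -0.43 on this measure, while both were higher in every mutant library than in every wild-type library.

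For the series as a whole, each library summed to 999999 to 1000001 TPM, and 12473 to 12812 genes reached 1 TPM. In all 892 genes were raised and 1350 lowered, a split that was 1096 and 1064 after median-of-ratios rescaling and 1073 and 1039 after quantile normalization. Ankrd11 was at 58.0 to 66.0 TPM in wild-type and 53.4 to 69.0 TPM in mutant libraries, which does not check a mutation of 1 residue. All 10 stem cell markers were above 1 TPM, with a sum of 10992 to 11716 TPM in wild type and 9855 to 11716 TPM in the mutant. Of these, 2 fell (Nanog from 543 to 339 TPM and Zfp42 from 361 to 257 TPM) and 2 rose (Esrrb from 247 to 299 TPM and Tdgf1 from 421 to 516 TPM), and their part in the members' differences was not tested. Of 10 fibroblast feeder markers 2 reached a mean of 1 TPM and Dcn and Postn were listed at 0, with a sum of 4.73 to 7.27 TPM in wild type and 5.61 to 6.73 TPM in the mutant. The sum of 7 primitive endoderm markers was 0.63 to 1.65 and 0.67 to 1.59 TPM. The sum of 6 trophoblast markers was 19.1 to 25.4 TPM in wild type and 26.4 to 38.3 TPM in the mutant. Only Krt8 was called (raised), and Elf5 and Hand1 were near 0. Tfap2c made up most of the sum and overlapped, at 10.2 to 18.0 TPM in wild-type and 15.5 to 26.2 TPM in mutant libraries. Cdx2 and Eomes overlapped too. The part of these markers in the higher Fos, Jun and Atf3 was not tested.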

How the data were processed

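Poly(A) RNA of 10 libraries was captured on beads and prepared with a VAHTS Universal kit, per the labels' protocols. The authors deposited TPM values per gene and library; the submitters' processing notes name Trim Galore, STAR, RSEM, DESeq2 and mm10, with versions, strand mode and annotation not given in the sources used here. TPM keep no depth, so counting error is unknown. Of the per-sample columns, 0 were left out.

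Genes averaging 1 TPM or more were analysed as log2(TPM + 1). Libraries were averaged by set, and the 3 mutant sets were tested against the 2 of wild type (limma 3.58.1 under R 4.3.3, two-sided, eBayes with trend, residual df 3, prior df 4.01). Sets were compared within a genotype in limma over 10 libraries with 1 coefficient per set. The fits were tested on simulated data. The members and gene lists were chosen with earlier results of these data known. Named genes were all members, up to 4 called genes by size per list (or the smallest p), and the 5 genes most like Fos and Jun. Alternatives changed the pseudocount, filter, scaling, variance moderation, unit of replication and blocks, or left out each set and library. A GC correction (lowess, span 0.3, 99.9% of tested genes) was added after seeing the data. The labels do not say whether rep numbers pair libraries between sets. Correlations of their deviations between sets ran from -0.08 to 0.12, with 2 of 10 pairs over 0.1, which cannot exclude a weak pairing. Promoter windows are from RefSeq and gene models from GENCODE M21, both GRCm38, and identifiers were matched without versions. Figures were drawn with matplotlib 3.10.9.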

Additional observations from a re-analysis of the deposited data

Results flagged for a closer look

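Among 76 groups of libraries (each member and named gene in each genotype), 1 library stood apart by Dixon's test at the 95% level, where chance gives about 1 in 20 groups. Jund was at 50.7 TPM in mutant set 1 replicate 2, against 35.8 to 40.7 TPM in the other 5 mutant libraries, a gap of 0.669 of the range. The test between genotypes passed the threshold neither with this library nor without it.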

How the results depend on the processing

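Every alternative kept the direction of Fos, Jun, Atf3 and Ier2. Fos was called in 21 of 26 alternatives (log2 fold change 0.81 to 1.37), Jun in 20 of 26 (0.58 to 1.08), Atf3 in 10 of 26 and Ier2 in 13 of 27 (-0.41 to -0.26). Junb turned negative without wild-type set 1, with no call in any alternative. The counts of genes changed (2242), members raised (3) and members lowered (1) were 809, 0 and 0 with no filter, where 26268 genes were tested. With a replicate block of set numbers 1 and 2, which drops mutant set 3, they were 561, 0 and 0. No member was counted as raised at a mean of at least 5 TPM, since Fos, Jun and Atf3 lie under that level. The count of members lowered was 0 by median-of-ratios scaling, by quantile normalization and with no variance trend. Over 10 libraries 5269 genes changed without a block, 4998 with a replicate block of rep numbers and 3398 with the set as a random block, and the same 4 members were called in each. The fits without a block and with rep numbers take the libraries of a set as independent, which may make their p too small. Leaving out 1 set or library gave 42 to 2393 genes changed, 0 to 3 members raised and 0 to 1 lowered. The count was 196 and 42 when wild-type set 1 or 2 was dropped, and 654 and 920 when mutant set 1 or 3 was. Genes that differed between the mutant sets (2507) were 1614 with no filter and 1118 to 2801 without 1 library, and members that differed were 1 with no filter, and 0 without any 1 library. Genes that differed between the wild-type sets (352) were 157 with no variance trend, 233 with a replicate block of rep numbers and 44 to 614 without 1 library. Members that differed there (1) were 0 with no filter and 0 to 1 without 1 library. The cause of these differences was not tested. Of 29 other named genes, 6 stayed on their side of the threshold in every alternative, Socs3 as called and 5 as not called. TPM give no depth, so the precision of members near or under 1 TPM is unknown.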
